A study of Saccharomyces cerevisiae with 4 samples.

Results

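The 212 sites described here are those positions of a list of 1892 candidate 5-formylcytidine (f5C) sites in budding yeast mRNA that lie in genes with 4 or more listed positions. A row of the list counted for a gene when it named a single locus, and 46 of the 1253 genes with such a row held at least 4. These genes are 3.67% of the genes with a site and their sites are 11.2% of the list. The genes were chosen by how many of their positions were listed, and a position was listed for its mutated reads after treatment. The levels and the site numbers below are therefore descriptions and were not tested. In all, 12 genes had 5 sites, 29 genes had 4, and HSP104, ACC1, KGD1, PHM7 and HOL1 had more than 5.

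f5C is an oxidised form of 5-methylcytidine, a methylated RNA base. Reduction with pyridine borane yields dihydrouridine, a base copied as if it were U, so treatment turns a modified cytidine into a mismatch that untreated RNA lacks. In animal tRNA f5C is known from the wobble position, where it takes part in reading codons.

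Saccharomyces cerevisiae was grown from a single colony in rich glucose medium at 28 °C, and poly(A)+ RNA was purified and fragmented. In the treated group (2 libraries) the fragments were kept in 0.9 M pyridine borane at pH 5.2 and 37 °C for 24 h, and the input group (2 libraries) was left untreated. Strain and genotype are not given in the labels, and all 4 libraries come from the same kind of culture. The labels number the libraries 1 and 2 in both groups without saying whether these were separate cultures, so an SD over n = 2 may be technical spread only.

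For each site the level is the percentage of covering reads that were mutated in treated RNA, averaged over the 2 treated libraries. The treated libraries covered a member site with 159 to 14840 reads (replicate 1) and 127 to 10342 reads (replicate 2), and the input libraries with 150 to 12974 and 118 to 10357 reads. No member site had a treated fraction under 7.5% in either replicate, or fewer than 14 mutated reads. All listed sites share the lower edge of 7.5%, so a low level is cut off and cannot be seen. Positions are given as in the deposited list, on the chromosomes of the nuclear genome, and their build is not given in the sources.

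At the edge of the choice, the 29 genes with exactly 4 sites had a median level of 8.80% over 116 sites and a median coverage of 517 reads. The 91 genes with exactly 3 sites, just outside, had 9.11% over 273 sites and 474 reads.

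All 46 genes encode proteins. By known function, 10 belong to central carbon metabolism, 6 to biosynthesis of lipids, nucleotides, amino acids and amino sugars, 4 to chaperones, 6 to membrane transporters and pumps, 6 to the secretory pathway and membrane contacts, 6 to regulators and RNA-binding proteins, and 8 were placed in no class. The 46 genes are 0.766% of the 6002 nuclear protein-coding genes of the symbol table. The following lists were drawn up with earlier results of these data known. They are given beside that share without a test, and a higher share in a list is not a result. Of 38 genes of the tricarboxylic acid cycle and acetyl-CoA supply, 6 had 4 or more sites, 16 had 1 to 3 and 16 had none. The 6 were ACO1, KGD1 and SDH1 of the cycle, and PYC1, PYC2 and CAT2 of the reactions around it. Of 29 chaperones and heat shock proteins, 4 had 4 or more sites and 14 had 1 to 3. Plasma membrane transporters and pumps held 3 such genes of 50, and HIS4 was the 1 such gene among 67 genes of amino acid and one-carbon biosynthesis, of which 37 had 1 to 3 sites. Glycogen and trehalose metabolism, glycolysis and ethanol fermentation, and fatty acid and sterol synthesis held 1 each, GDB1 of 18 genes, PDC1 of 25 and ACC1 of 34. Among 35 translation factors 0 had 4 or more sites, while 17 had 1 to 3, led by CAM1, EFT1 and YEF3 with 3 each. Gene length, cytidine number and the coverage of genes without a site were not used here, so the shares are not separated from longer or more highly expressed genes.

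Within the tricarboxylic acid cycle and the reactions that feed it, KGD1 (YIL125W, chromosome IX, plus strand), which encodes a subunit of alpha-ketoglutarate dehydrogenase, had 7 sites. From the 5′ end they had 7.97, 8.91, 9.81, 11.6, 10.3, 7.73 and 21.7% mutated reads in treated replicate 1, and 13.2, 8.19, 7.87, 9.54, 10.3, 8.57 and 19.7% in treated replicate 2. No KGD1 site exceeded 0.187% in an input library. The last site, at position 125158, stood apart in both treated libraries, with a level of 20.7% ± 1.46 (SD, n = 2) against 10.6% for the next highest. ACO1 (YLR304C, chromosome XII, minus strand), the aconitase gene, had 5 sites with levels between 8.25% and 9.47%. Its sites did not spread further than the replicates of a single site, with an SD of 0.487 points over sites and 0.736 points between replicates.

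SDH1 (YKL148C, chromosome XI, minus strand), the flavoprotein subunit of succinate dehydrogenase, had 4 sites within 741 nt. In 5′ to 3′ order the fractions were 7.67, 10.3, 7.71 and 13.7% in treated replicate 1 and 7.52, 8.90, 9.92 and 12.0% in treated replicate 2, and none exceeded 0.206% in input. The 3′ most site was the highest in both treated libraries, at 2509 and 1569 treated reads. CAT2 (YML042W, chromosome XIII, plus strand), the carnitine acetyltransferase that moves acetyl groups between compartments, had 5 sites. At 4 of them the level was 10.6% to 11.8%, while the site at position 194149 had 7.53% and 7.50% in the treated libraries and no mutated input read, so that its coverage permits up to 0.311% in input. That site has the lowest level of all 212 and sits just above the edge of the list. The other CAT2 sites lay above it in both replicates.

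PYC1 and PYC2 encode the paired pyruvate carboxylases that refill the cycle with oxaloacetate. PYC1 (YGL062W) had 5 sites at 8.13% to 9.06% and PYC2 (YBR218C) 4 sites at 8.07% to 8.98%, ranges of level of 0.930 and 0.904 points and among the 5 narrowest. PDC1 (YLR044C, chromosome XII, minus strand), the main pyruvate decarboxylase of ethanol fermentation, was the most deeply covered gene, with a median of 14226 and 10094 reads in the treated libraries and 12376 and 10103 in the input libraries. Its 4 sites had 8.23, 8.57, 7.87 and 9.20% mutated reads in treated replicate 1 and 8.12, 8.78, 7.83 and 9.34% in treated replicate 2, against at most 0.0925% in input. The order of the 4 sites was the same in both treated libraries. The highest and the lowest PDC1 site differed by 1.42 points, and the replicates of a PDC1 site had an SD of 0.100 points.

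GDB1 (YPR184W), the glycogen debranching enzyme, had 5 sites, of which the one at position 903487 on chromosome XVI had 11.5% ± 1.02 (SD, n = 2) and the other 4 between 8.39% and 9.14%. GND1, 6-phosphogluconate dehydrogenase of the pentose phosphate pathway, had 4 sites between 8.19% and 8.66%, the second narrowest range of level at 0.467 points. GPD2, a glycerol-3-phosphate dehydrogenase, had levels from 7.91% to 9.72% that were lower at each site further 3′.

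Among chaperones HSP104 (YLL026W, chromosome XII, plus strand), the disaggregase that pulls proteins out of aggregates after heat shock, had 8 sites over 1904 nt. The fractions from the 5′ end were 8.83, 8.92, 7.93, 7.96, 8.84, 8.41, 8.60 and 9.75% in treated replicate 1, and 8.20, 8.77, 8.06, 7.57, 9.73, 8.65, 7.77 and 8.87% in treated replicate 2. Input libraries had at most 0.196% at any of these sites. The gene mean was 8.55% ± 0.143 (SD, n = 2) at a median coverage of 4280.5 and 3112.5 treated reads. The 3′ most and the fourth site, at 9.31% and 7.77%, bounded the range.

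HSC82 and HSP82 encode the constitutive and the inducible Hsp90. HSC82 (YMR186W, chromosome XIII) had 5 sites from 7.80% to 8.73%, and HSP82 (YPL240C, chromosome XVI) had 4 from 7.62% to 8.74%. Their gene means of 8.34% ± 0.113 and 8.28% ± 0.0841 (SD, n = 2 each) overlapped within these SDs. The distances of the sites from the 5′ most one differed between the genes, at 70, 636, 642 and 896 nt in HSC82 and 283, 522 and 739 nt in HSP82. These paralogs are near-identical, so reads can be shared between them.

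SSB1 (YDL229W, chromosome IV, plus strand), a ribosome-associated Hsp70 that binds nascent chains, held neighbouring sites of unlike level at high coverage. The site at position 44119 had 8.00% and 8.06% mutated reads in treated replicates 1 and 2, and 0 of 2027 and 0 of 1594 reads in the input libraries, which permits up to 0.0829% in input. Only 9 nt downstream, position 44128 had 14.3% and 16.0% in the treated libraries against 0.0950% and 0.0608% in input. The coverage of both was nearly the same, with 2350 and 1761 treated reads at the first and 2427 and 1809 at the second. Their difference of 7.13 points was larger than the replicate SD of either, 0.0450 and 1.16 points. The Wilson 95% intervals on summed reads, 7.24% to 8.90% and 14.0% to 16.1%, did not overlap. Sites this close are covered by largely the same reads, so these intervals are not independent and do not measure the difference. The pair is described for its unlike levels and was not tested. The near-identical paralog SSB2 had 1 listed site with a level of 17.8%, and SSB1 and SSB2 can share reads.

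**Figure D1:**
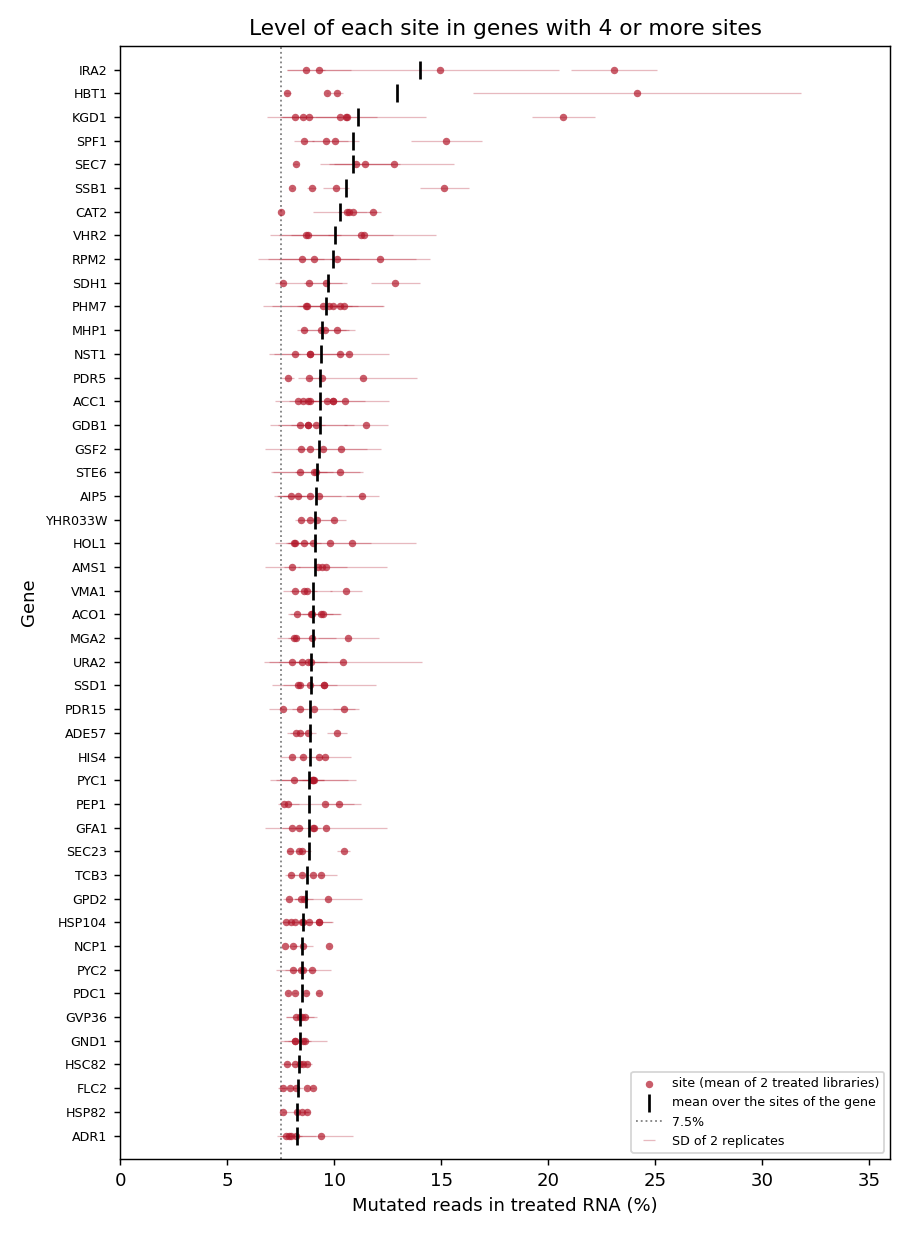
Levels of the 212 sites by gene, ordered by the mean over the sites of a gene, from IRA2 at 14.0% to ADR1 at 8.25%. The x axis is the percentage of mutated reads in treated RNA; red points are sites (mean of 2 treated libraries) with the SD of the 2 replicates as bars, black ticks are gene means, and the dotted line marks 7.5%. Most points lie under 10%, and single sites of HBT1, IRA2 and KGD1 lie at 20% or more.

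In biosynthesis ACC1 (YNR016C, chromosome XIV, minus strand), which encodes acetyl-CoA carboxylase, the first committed enzyme of fatty acid synthesis, had 8 sites over 4368 nt. From the 5′ end they had 9.64, 10.9, 8.51, 8.56, 9.07, 9.73, 9.32 and 9.07% in treated replicate 1 and 10.3, 8.40, 9.06, 8.57, 12.0, 10.2, 8.46 and 7.53% in treated replicate 2. The 8 sites together had 1 mutated read in input. The SD of the 8 levels was 0.796 points, and the lowest and highest were 8.30% and 10.5%. The gene mean was 9.33% ± 0.0331 (SD, n = 2), in which replicate differences of opposite sign cancel. The replicates of an ACC1 site had an SD of 1.08 points as single libraries, while each of the 8 levels is a mean of 2.

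URA2 (YJL130C, chromosome X, minus strand), the large enzyme that opens pyrimidine synthesis, had 5 sites from 8.03% to 10.4%. Its site at position 170214 had 7.82% in treated replicate 1 and 13.0% in treated replicate 2, the pair of values with the smallest p between replicates among the 212 sites. GFA1 (YKL104C, chromosome XI), which makes glucosamine-6-phosphate for chitin, had 5 sites from 8.04% to 9.62%, of which 3 lay within 145 nt near the 3′ end of the set. The gene means of HIS4, a multifunctional enzyme of histidine synthesis, of ADE57 (also written ADE5,7), a bifunctional enzyme of purine synthesis, and of NCP1, the reductase that serves cytochrome P450 enzymes of sterol synthesis, were 8.86%, 8.88% and 8.52%. The 6 genes of this class ran from 8.52% to 9.33%, the narrowest span of gene means of the classes.

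Among transporters HOL1 (YNR055C, chromosome XIV, minus strand), which takes up polyamines and cations, had 6 sites within 639 nt and 0 mutated reads in input at any of them, with upper limits of 0.414% to 0.589%. Treated fractions in 5′ to 3′ order were 8.43, 8.73, 7.50, 12.9, 8.39 and 7.86% in replicate 1 and 11.2, 9.29, 8.76, 8.71, 8.84 and 8.49% in replicate 2. The highest site differed between the libraries, the fourth in replicate 1 and the 5′ most in replicate 2. PDR5, the main drug exporter of the ABC family, had levels from 7.82% to 11.3% and its paralog PDR15 from 7.59% to 10.5%, each at 4 sites. In STE6, the exporter of the mating pheromone a-factor, the 4 sites had 8.40% to 10.3%, and in VMA1, the catalytic subunit of the vacuolar proton pump, 8.17% to 10.6%.

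SPF1 (YEL031W, chromosome V, plus strand), a P-type ATPase of the endoplasmic reticulum, had its highest site at the 5′ end of the set. There, at position 90336, 14.1% and 16.4% of 199 and 140 treated reads were mutated, against 0 and 0.649% in input replicates 1 and 2, the 0.649% being a single read. The other 3 SPF1 sites had levels of 9.63%, 10.1% and 8.60% in 5′ to 3′ order.

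Genes of the secretory pathway covered several steps of membrane traffic. SEC7 (YDR170C, chromosome IV, minus strand), the Golgi exchange factor for Arf GTPases, had 8.12, 9.84, 10.3 and 10.8% in treated replicate 1 and 8.27, 12.2, 12.6 and 14.8% in treated replicate 2, from 5′ to 3′, and 0 mutated reads in input, with upper limits of 0.463% to 0.935%. The order of its sites was the same in both treated libraries, at only 139 to 431 treated reads. GVP36, a BAR domain protein of Golgi vesicles, had the narrowest range of level of the 46 genes, 8.20% to 8.62%. SEC23, a coat subunit of vesicles leaving the endoplasmic reticulum, held sites 5 nt apart with levels of 8.49% ± 0.271 and 10.5% ± 0.308 (SD, n = 2 each). PEP1, a sorting receptor for vacuolar hydrolases, GSF2, which helps hexose transporters leave the endoplasmic reticulum, and TCB3, a tether between that membrane and the plasma membrane, had gene means of 8.83%, 9.30% and 8.73%.

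Among regulators IRA2 (YOL081W, chromosome XV, plus strand), a GTPase-activating protein that turns Ras off, had the highest gene mean, 14.0% ± 0.285 (SD, n = 2). Its first 3 sites lay within 74 nt and had 18.9, 21.7 and 8.23% in treated replicate 1 and 11.0, 24.5 and 10.4% in treated replicate 2. The fourth, 7198 nt further on, had 8.05% and 9.30%, and none of the 4 had a mutated read in input. The site at position 171139 was the highest of the gene in both libraries, at 180 and 151 treated reads. Its Wilson 95% interval on summed reads was 18.8% to 27.8%, and an input share of up to 0.980% is allowed by its coverage. IRA2 was also the gene with the lowest coverage, a median of 177.5 reads per library. The replicates of an IRA2 site had an SD of 3.08 points, well above the SD of the gene mean.

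ADR1 (YDR216W, chromosome IV), an activator of glucose-repressed genes, had the lowest gene mean, 8.25% ± 0.492 (SD, n = 2), over 5 sites. Apart from the 5′ most site at 9.39% its levels lay between 7.74% and 8.23%. SSD1 (YDR293C), an mRNA-binding repressor of translation, had 5 sites from 8.33% to 9.53%. RPM2, the protein subunit of mitochondrial RNase P, was higher in treated replicate 2 at all 4 of its sites, with gene means of 8.33% and 11.6% in treated replicates 1 and 2, so that its mean of 9.96% carries an SD of 2.30 points. MGA2, a membrane-anchored activator of the fatty acid desaturase gene, and VHR2, a transcriptional regulator, had gene means of 9.00% and 10.02%.

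The genes outside these classes included the site with the highest level. In HBT1 (YDL223C, chromosome IV, minus strand), position 59530 had 29.6% of 203 reads mutated in treated replicate 1 and 18.7% of 171 reads in treated replicate 2, with 0 mutated reads in input, which permits up to 0.901%. The other 3 HBT1 sites had levels of 7.82%, 9.69% and 10.1%, below the first in both libraries. PHM7 (YOL084W) had 7 sites from 8.66% to 10.5% at 233 to 642 treated reads, and AIP5, NST1 and FLC2 had 5 sites each, with gene means of 9.16%, 9.37% and 8.30%. MHP1, a microtubule-associated protein, and AMS1, the vacuolar alpha-mannosidase, had 9.43% and 9.08%. YHR033W, which has no other symbol here, had 9.12%.

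Most of the variance of the levels, with counting error included, lay within genes. In a decomposition of the 212 levels, the SD among sites of a gene was 1.93 percentage points and the SD between genes was 0.633 points, so that 9.73% of the variance was between genes. For comparison, the replicates of a site had an SD of 1.32 points, which leaves 0.936 points for a mean of 2, and the reads alone would give 0.994 points by binomial counting. Without the 3 sites of 20% or more the SD within genes was 1.19 points and that between genes 0.358 points. Without the 5 genes of widest range, a setting chosen after seeing the data, the SD within genes was 0.978 points. Binomial counting alone gives 0.943 points there, and the SD between genes was 0.319 points. Those 5 genes were picked for their wide range, so a smaller SD within genes without them follows from the choice. The SD within genes was larger than that between genes in each of these settings. Binomial counting takes no account of the lower edge of the list, and the part of counting error in the spread was not tested. In the 379 genes with 2 or 3 sites the SD within genes was 1.80 points and that between genes 0.672 points, or 12.2% between genes. Gene means ran from 8.25% to 14.0%, and 38 of 46 lay under 10%. Gene by gene, the SD over sites was larger than the replicate SD of a mean level in 30 genes and not larger in 16.

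The highest and the lowest site of each gene were also set side by side with their counting intervals. The Wilson 95% intervals of the highest and the lowest site did not overlap in 12 genes, HBT1, IRA2, KGD1, SSB1, SPF1, SDH1, CAT2, PDR5, VMA1, HSP104, PDC1 and HSP82, and overlapped in the other 34. The highest and lowest sites were picked for their values, so this count describes the genes and is no test. The ratio of highest to lowest level was 3.09 in HBT1, 2.66 in IRA2, 2.54 in KGD1 and 1.89 in SSB1. In HSP82, the second of the Hsp90 genes, the levels at either end were 8.74% and 7.62%. The highest site was the 3′ most of its gene in 16 genes, the 5′ most in 8 and an inner one in 22.

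Against the 1677 sites of genes with 1 to 3 sites, the member sites had a slightly lower and tighter set of levels. Their median was 8.85% with quartiles of 8.36% and 9.64%, against 9.03% with quartiles of 8.35% and 10.2% in the other sites. Levels under 10% made up 79.7% of member sites and 71.6% of the others, and 3 member sites (1.42%) reached 20% against 17 of the others (1.01%). Coverage moved with this difference: the median coverage was 484 reads at member sites and 374.5 at the others. Among sites with fewer than 300 reads on average the medians were 9.48% over 46 member sites and 10.1% over 624 others, from 300 to below 1000 reads 8.95% and 8.74%, and at 1000 reads or more 8.52% and 8.53%. The direction of the difference was thus not the same in each class of coverage, and the part of coverage in it was not tested.

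**Figure D2:**
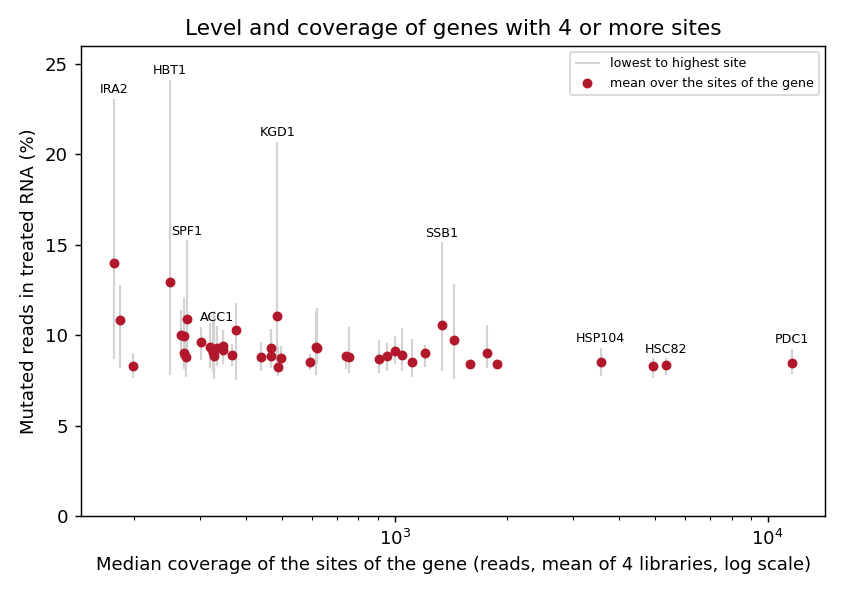
Levels and coverage of the 46 genes. The x axis is the median coverage of the sites of a gene (mean of 4 libraries, log scale), the y axis the percentage of mutated reads in treated RNA; red points are gene means and grey lines run from the lowest to the highest site. The 4 most deeply covered genes, PDC1, HSC82, HSP82 and HSP104, have narrow ranges near 8.5%, while IRA2 and HBT1, among the 5 shallowest, have the widest. FLC2, also among the 5 shallowest, has a range of only 1.38 points, and SSB1, at a median of 1338 reads, one of 7.13 points. Over the 46 genes, range against median coverage had Spearman's rho = -0.478 and Pearson's r = -0.195.

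Coverage differed far more between genes than within them. The median coverage per gene ran from 177.5 reads in IRA2, 184 in SEC7, 199 in FLC2, 250 in HBT1 and 267 in VHR2 to 1884 in GND1, 3566 in HSP104, 4934 in HSP82, 5352 in HSC82 and 11594 in PDC1. Within a gene the most covered site had a median of 1.71 times the coverage of the least covered one, from 1.05 times in PDC1 to 3.36 times in ACC1. The 3′ most site was more covered than the 5′ most one in 30 genes and less in 16, with a median ratio of 1.11. ACC1 had 2.16 times and SPF1 2.26 times the coverage at the 3′ most site, and SSB1 0.385 times. Across the 46 genes the more deeply covered ones tended to lower mean levels (Spearman's rho = -0.525, Pearson's r = -0.281, n = 46 genes). Across the 212 member sites rho was -0.318 and r was -0.156. These are descriptions in which level and coverage share the same reads and the lower edge of the list.

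**Figure D3:**
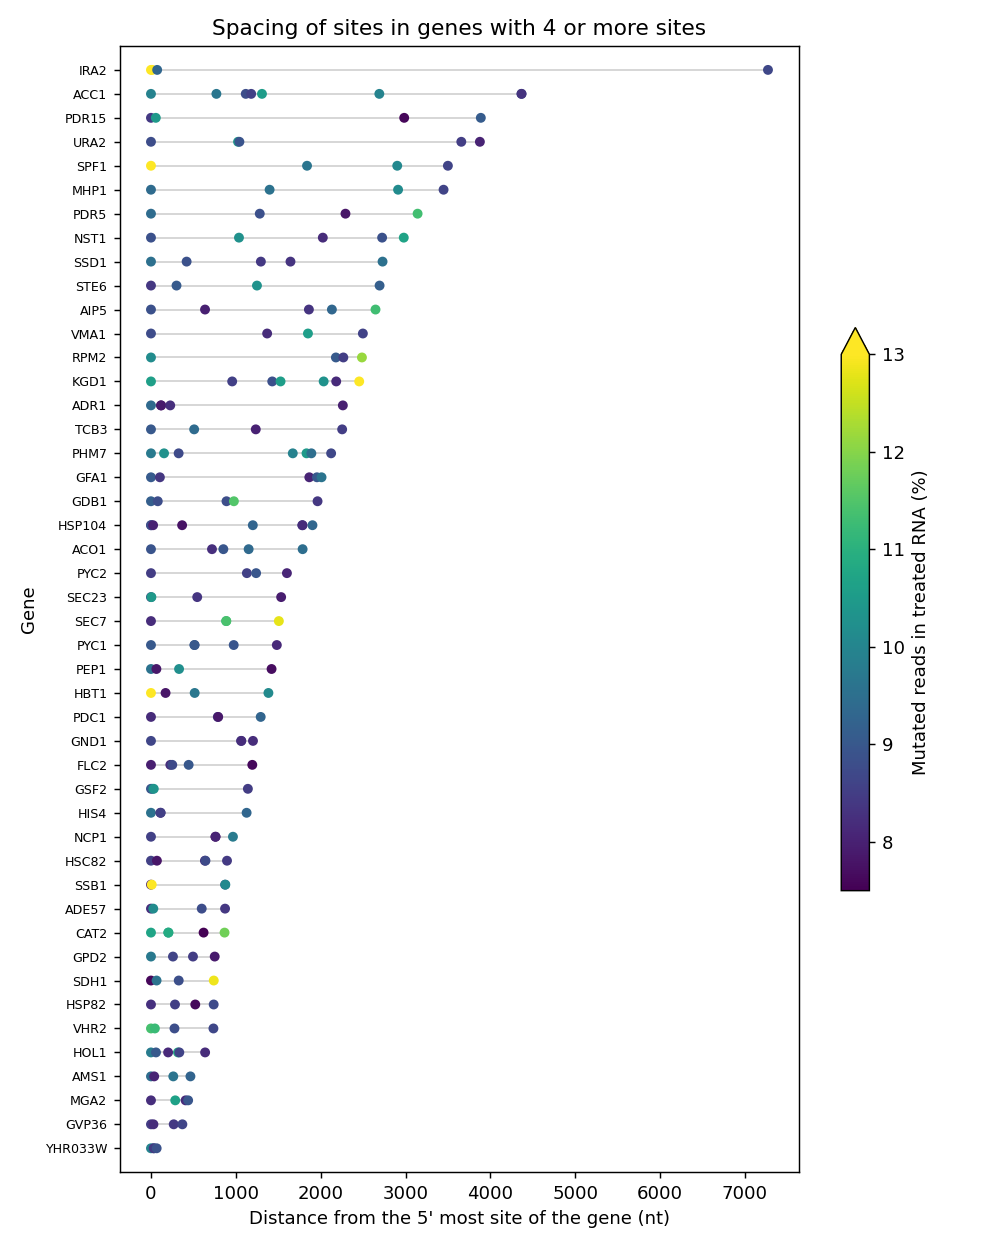
Spacing of sites in the 46 genes, ordered by span. The x axis is the distance in nt from the 5′ most site of a gene, points are sites, and colour gives the level in treated RNA (percentage of mutated reads, 13% and above in one colour). IRA2 spans 7272 nt with its first 3 sites together, and the 4 sites of YHR033W lie within 68 nt.

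The span from the first to the last site of a gene had a median of 1521.5 nt, with quartiles of 882 and 2495 nt. The longest spans were those of IRA2 with 7272 nt, ACC1 with 4368, PDR15 with 3888, URA2 with 3877 and SPF1 with 3500. The shortest were those of YHR033W with 68 nt, GVP36 with 371, MGA2 with 439, AMS1 with 466 and HOL1 with 639. The sites were unevenly spread, and in 30 genes a single gap took up more than 50% of the distance between the first and the last site. In ADR1 4 of 5 sites lay at the 5′ end of the set and a gap of 2034 nt preceded the last. In PHM7, 3 sites were separated from the other 4 by 1345 nt.

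Neighbouring sites of a gene lay a median of 269 nt apart over 166 gaps, with quartiles of 88.5 and 768 nt. In genes with 2 or 3 sites the median was 332.5 nt over 470 gaps. Gaps of at most 100 nt made up 26.5% in member genes and 24.5% in genes with 2 or 3 sites, and those of at most 10 nt 9.64% and 8.30%. A neighbour within 100 nt was found for 82 of the 212 sites, in 32 genes. Stretches of at least 3 sites linked by such gaps occurred in 5 genes: all 4 sites of YHR033W, 3 sites within 26 nt in HSP104, 3 within 34 nt in GSF2, 3 within 74 nt in IRA2 and 3 within 145 nt in GFA1.

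**Figure D4:**
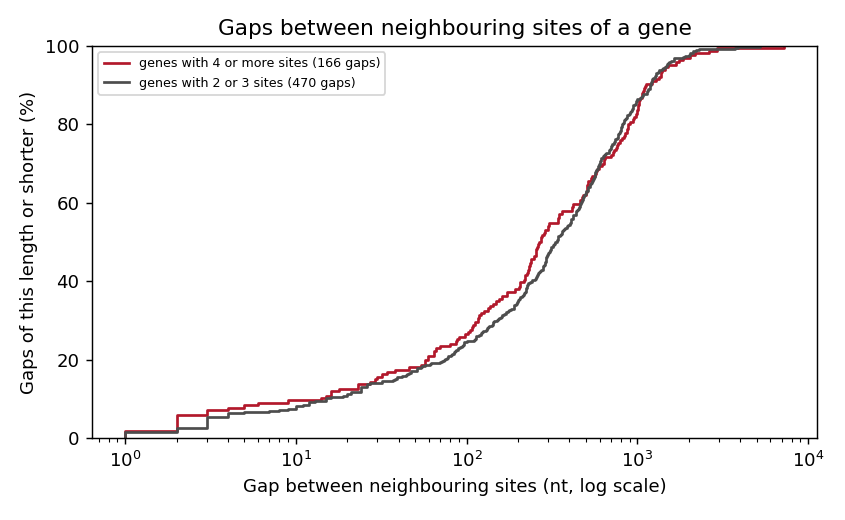
Cumulative percentage of gaps between neighbouring sites of a gene by length (nt, log scale), in red for the 166 gaps of genes with 4 or more sites and in grey for the 470 gaps of genes with 2 or 3 sites. The curves run close together, with medians of 269 and 332.5 nt.

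The closest pairs were directly adjacent. In ACC1 positions 656912 and 656911 had 8.89% ± 0.607 and 8.30% ± 1.09, in NCP1 positions 191481 and 191482 on chromosome VIII had 7.70% ± 0.0120 and 8.06% ± 0.234, and in YHR033W positions 175968 and 175969 on the same chromosome had 9.18% ± 0.885 and 8.44% ± 0.271 (SD, n = 2 each). A distance of 2 nt occurred in 7 of the 166 gaps of member genes, in ADR1, CAT2, HIS4, HSP104, PYC1, SEC7 and SSB1, and in 5 of the 470 gaps of genes with 2 or 3 sites. A distance of 3 nt went the other way, with 2 gaps in member genes and 14 in genes with 2 or 3 sites. Both distances were picked after the values were seen. Over the 16 gaps of at most 10 nt in member genes the median difference in level was 0.459 points. It was 0.856 points over 28 gaps of 11 to 100 nt and 0.861 points over 122 longer gaps. In genes with 2 or 3 sites the values were 0.832 points over 39 gaps, 1.18 points over 76 and 0.906 points over 355. Coverage was not matched between the gap classes. Sites at most 10 nt apart are covered by largely the same reads and are not independent measurements. The SSB1 pair 9 nt apart and the SEC23 pair 5 nt apart differed by 7.13 and 1.96 points, the largest differences among the 16.

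The treated libraries were compared with each other at each site by two-sided Fisher exact test, adjusted by the Benjamini-Hochberg method over all 1892 sites. Of the 212 member sites 0 differed after adjustment, as did 0 of all 1892 (0%). No listed site had a treated fraction under 7.5% in either library, so pairs with a lower value are absent from this comparison. At an unadjusted p of 0.05, 8 member sites (3.77%) and 52 of all sites (2.75%) differed, so the share of members was near the background. The 8 lay in URA2 (2 sites), HBT1, PDR5, RPM2, SDH1, KGD1 and GFA1, and the smallest p was that of URA2 position 170214 (exact p = 0.00189, adjusted p = 1). The median absolute difference between treated replicates was 0.813 points over the member sites, of which 118 were higher in replicate 2 and 94 lower. Across the 212 sites, which share libraries, Spearman's rho between the treated replicates was 0.265 and Pearson's r was 0.653, and without the 3 sites of 20% or more Pearson's r was 0.359. Across the 46 gene means Spearman's rho was 0.510.

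**Figure D5:**
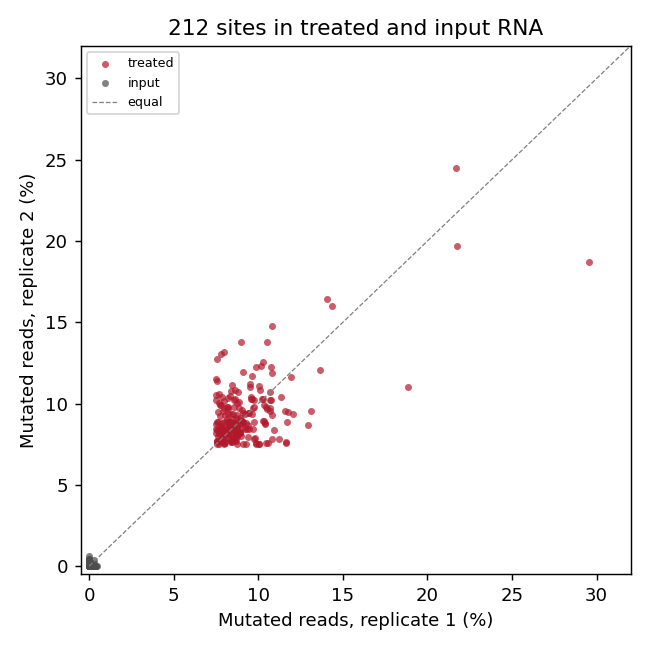
Mutated reads at the 212 sites in replicate 1 (x axis, %) and replicate 2 (y axis, %), in red for treated and in grey for input libraries, with the dashed line marking equal values. Treated points start at 7.5% on both axes and most form a cloud below 15%, while input points lie under 1%.

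All 212 sites were higher in treated than in input RNA by Fisher exact test on summed reads, as were all 1892 listed sites (100%), which the choice of sites fixes. The largest adjusted exact p of a member site was 3.65e-10. Input libraries held 124 and 96 mutated reads over the member sites, or 0.0476% and 0.0453% of the covering reads, against 0.0473% and 0.0444% over the sites of genes with 1 to 3 sites. No mutated read was found in either input library at 123 member sites (58.0%), against 64.9% of the sites of genes with 1 to 3 sites. The median coverage in input was 515 and 428 reads at member sites, against 401 and 328 reads at the sites of genes with 1 to 3. Among the members 7 genes, HOL1, SSD1, FLC2, TCB3, GSF2, SEC7 and IRA2, had no mutated input read at any site. Averaged over both input libraries, the highest input fraction of a member site was 0.335%, at HBT1 position 59358, from 1 mutated read in each. In a single input library it was 0.649%, from 1 mutated read of 154 at SPF1 position 90336.

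Several members have close paralogs. Besides the Hsp90 pair, PYC1 with PYC2 and PDR5 with PDR15 are both among the 46 genes. PDC5, GND2, HFA1, SDH9 and GPD1, which are paralogs of PDC1, GND1, ACC1, SDH1 and GPD2, had no listed site, and IRA1, the paralog of IRA2, had 1 site with a level of 12.8% at a mean coverage of 101 reads. How reads were divided within such pairs is not given in the sources.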

How the data were processed

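Counts of covering and of mutated reads per position, for 2 treated and 2 input libraries, were deposited by the authors, per the file headers. The deposited fraction equals mutated over covering reads. The authors' fold change (a ratio, treated over input), p-value and q-value per replicate were deposited too and not used here. Per the submitters' processing notes the tools included STAR and cutadapt; their versions, the site caller and its filters are not given in the sources. Groups and replicate numbers came from the titles.

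Levels, spans, gaps and variance components (one-way, genes of unequal size) were computed with Python 3.11.15, numpy 2.4.6, scipy 1.17.1, pandas 2.3.3 and statsmodels 0.14.6. Fisher exact tests used an adjusted p of 0.05. A minimum of 10 reads per group left out no site, as the lowest coverage of a listed site in a library was 43 reads. The Fisher tests and the variance components were tested on simulated data. Wilson intervals (95%) and upper limits at 0 (3 reads) cover counting error only. Symbols came from a RefSeq table (assembly R64) by locus tag, which held all 46 genes. Functions were assigned from general knowledge. Members, lists and tests were chosen with earlier results of these data known. Values are given for genes with 5 or more sites and for the extremes of level, range, span, gap and coverage, and the other members are named with their gene mean or range. The paralogs, the interval overlaps and the counts of 2-nt gaps were added after values were seen.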

Additional observations from a re-analysis of the deposited data

How the results depend on the processing

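The whole list holds only sites that passed in both treated libraries, so settings that leave out a replicate do not test the choice. The members were 485 sites in 137 genes with 3 or more sites per gene and 96 sites in 17 genes with 5 or more, by construction, and 212 under the other settings. The median level was 8.70% to 8.82% when a replicate was left out, 8.52% at the 41 sites covered by 1000 or more reads in all libraries, and 8.81 points after subtracting input. The share of variance between genes, 9.73%, was 7.67% to 8.11% with a replicate left out, 10.6% on the log2 scale, 8.27% without sites of 20% or more and 6.21% over 12 genes at 1000 reads or more. In settings chosen after seeing the data it was 12.2% in genes with 2 or 3 sites and 9.59% without HBT1, IRA2, KGD1, SSB1 and SPF1. The median span was 877 nt with 3 or more sites per gene and 2011 nt with 5 or more, and the median gap 255 to 271 nt. Median coverage was 420 to 545 reads when a replicate was left out. With the replicate block (Cochran-Mantel-Haenszel) all 212 sites were called higher in treated RNA, as in every other setting of this test, which the choice of sites fixes. The numbers share no stated culture, and the correlation of deviations between libraries of the same number was -0.00502 for coverage and 0.106 for the mutated fraction over 680 sites. Unadjusted, 8 sites differed between treated replicates, and 0 after adjustment at minimums of 100 and 1000 reads. Where values moved beyond these constructions, the cause was not tested. Depth limits what can be told apart. Without sites of 20% or more, counting alone gives a level an SD of 0.971 points, against 1.19 points among the sites of a gene. At the 41 sites with 1000 reads or more in all libraries, counting gives 0.397 points, against 1.31 points among the sites of a gene.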
